A study of Mus musculus with 8 samples.

Results

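Bone marrow homing receptors are described here by 9 genes: the chemokine receptors Cxcr4, Ccr7 and Cxcr5, the sphingosine 1-phosphate (S1P) receptors S1pr1 and S1pr4, the integrin chains Itga4, Itgb1 and Itgal, and the hyaluronan receptor Cd44. They were chosen by gene symbol, and each had 1 row among the 52550 genes of every library. No selectin is among them. All 9 passed the filter of at least 1 FPKM (fragments relative to transcript length and library total) in at least 2 of 7 libraries, as did 10793 genes in all.

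RNA was sequenced from cells of 2 early stages of B cell development, pre-pro-B and the later pro-B, sorted from the bone marrow of C57BL/6J mice, and the aim was to see how gene expression shifts without lactoferrin, an iron-binding protein of milk and neutrophil granules. The groups were wild type (WT) pre-pro-B (2 libraries), WT pro-B (1 library; replicate 2 was not analysed here), lactoferrin knockout (Lf-/-) pre-pro-B (2 libraries) and Lf-/- pro-B (2 libraries). The knockout was in the whole animal, the controls were age-matched littermates and no group was treated; the age is not given in the sources used here. The titles give the same 4 codes (WT1, WT2, KO1 and KO2) to the libraries of both stages, so the pre-pro-B and pro-B libraries of 1 code may come from the same mouse or pool. The means and SDs over 3 WT and 4 Lf-/- libraries and the fits across stages treat those libraries as independent, so p-values measure the spread between libraries, which may in part be technical.

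CXCR4 binds CXCL12 made by marrow stroma and holds B cell precursors there. S1PR1 senses S1P in blood and draws lymphocytes out of the marrow, whereas CCR7 (ligands CCL19 and CCL21) and CXCR5 (ligand CXCL13) guide lymphocytes into T zones and follicles of lymphoid organs. The integrins VLA-4 (Itga4 with Itgb1) and LFA-1 (Itgal with Itgb2) bind VCAM1 and ICAM1, and CD44 binds hyaluronan.

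Ltf, the deleted gene, lay between 2143 and 2731 FPKM in the WT libraries and between 88.2 and 168 FPKM in the Lf-/- libraries (adjusted p = 0.00206, limma). Depth, read from the steps of low values, was 10800000 to 15300000 fragments in 6 libraries. Lf-/- pre-pro-B replicate 2 stood apart: no step could be read in it, and 12172 genes were above 0, compared with 19477 to 20250 in the others. The sorted populations did not read as B-lineage RNA alone. The 16 neutrophil markers, led by S100a8 and S100a9, took 39.1% to 53.2% of summed FPKM in WT and 25.4% to 39.6% in Lf-/- libraries. The 17 early B lineage markers took 0.0517% to 0.122% in WT and 0.264% to 0.474% in Lf-/-, and the 8 mature B cell markers took 0.00463% to 0.00684% and 0.0215% to 0.0566%. Neither of these 2 B cell sums overlapped between genotypes. By single genes, 8 of 16 tested early B lineage markers and 5 of 7 mature B cell markers were higher in every Lf-/- library, beside 9.87% of all genes tested. In bulk samples such as these, more cells of a type and more RNA per cell cannot be told apart.

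Ccr7, S1pr1, Cxcr5, Cxcr4 and S1pr4 were higher in all 4 Lf-/- libraries than in all 3 WT libraries, with mean FPKM 5.18, 5.50, 7.61, 3.13 and 1.66 times the WT mean. These 5 of 9 members stand beside 9.87% of all genes tested that were separated in this way. Cxcr5 was below 1 FPKM in every WT library and passed the filter only through its Lf-/- libraries. None of Itga4, Itgb1, Itgal and Cd44 was separated, and the difference between receptors and adhesion molecules was not tested. With median-ratio scaling Cxcr4 and S1pr4 were not separated either. B cell marker RNA was higher in the same libraries, and relative to the summed early B lineage markers the values of Ccr7, S1pr1, Cxcr5 and Cxcr4 overlapped between the genotypes, as given further on. No member passed an adjusted p of 0.05 across both stages, where 0.185% of genes did; 4 members passed 0.05 unadjusted, all of them higher, where 6.48% of genes did so in that direction.

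**Figure D1:**
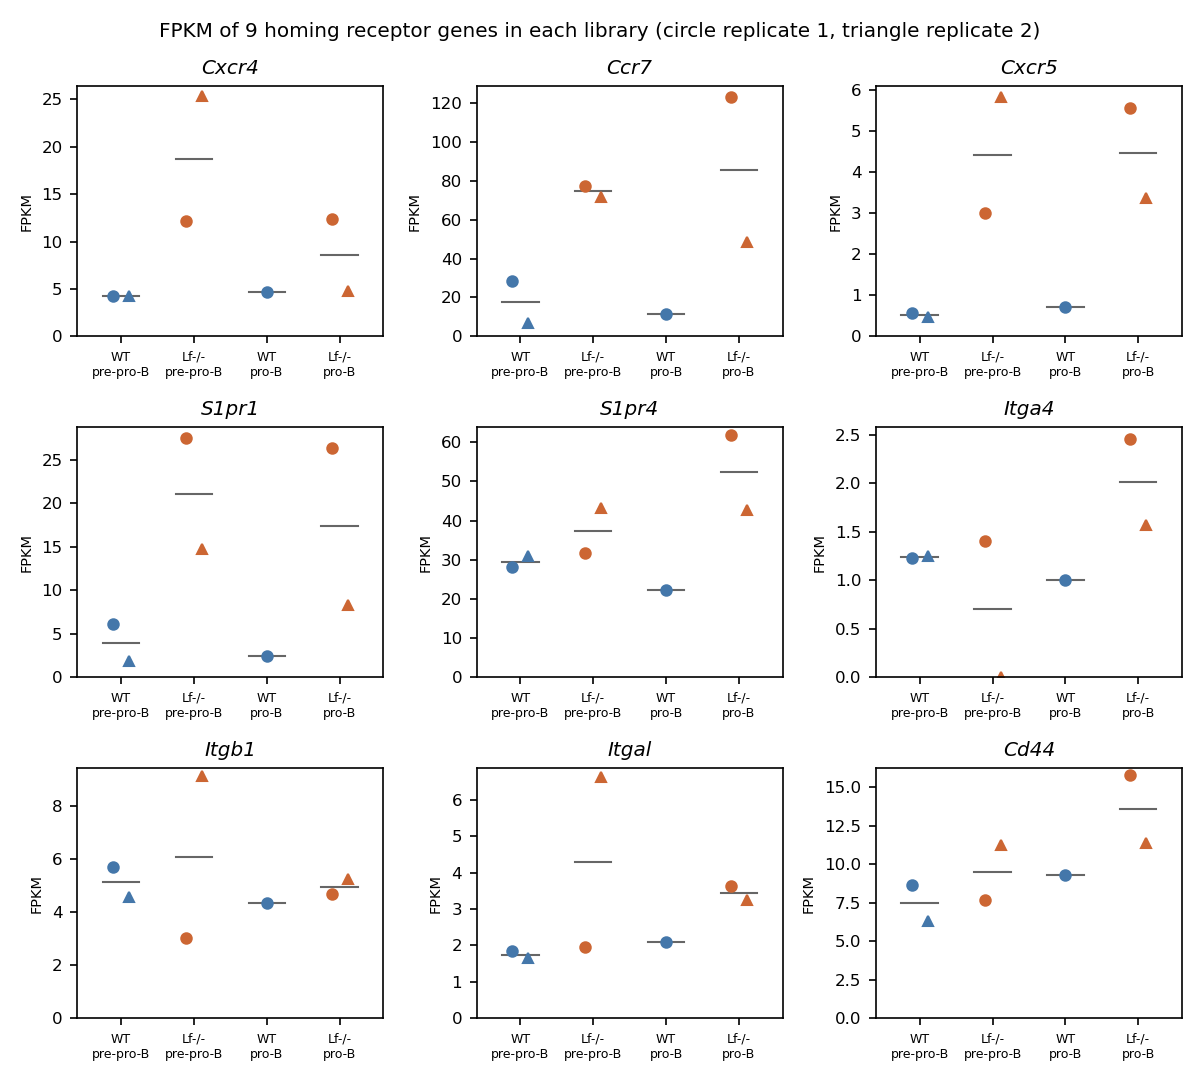
Each panel plots FPKM (linear axis from 0) of 1 gene for the 7 libraries in 4 groups, with WT in blue, Lf-/- in orange, and a grey line at each group mean. Ccr7, S1pr1 and Cxcr5 lie higher in all Lf-/- libraries; Itga4 is listed at 0 in Lf-/- pre-pro-B replicate 2.

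Ccr7 (chromosome 11, 99144196 to 99155077 of GRCm38) had the highest level of the 9 in Lf-/- cells. Its FPKM was 28.3 and 6.71 for WT pre-pro-B, 11.5 for WT pro-B, 77.5 and 71.9 for Lf-/- pre-pro-B, and 123 and 48.3 for Lf-/- pro-B. The lowest Lf-/- library was 1.71 times the highest WT library. The mean was 15.5 ± 11.3 FPKM (SD, n = 3) in WT and 80.2 ± 31.2 (SD, n = 4) in Lf-/-. The difference in log2(FPKM + 1), Lf-/- minus WT with stage in the fit, was 2.46 (SE 0.51; limma, unadjusted p = 0.000937, adjusted p = 0.153), rank 65 of 10793 genes by p. On this scale the change of low genes is understated.

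S1pr1 (chromosome 3, 115710433 to 115715072) had 6.10 and 1.89 FPKM for WT pre-pro-B, 2.50 for WT pro-B, 27.5 and 14.7 for Lf-/- pre-pro-B, and 26.4 and 8.28 for Lf-/- pro-B. The genotypes did not overlap, and libraries within a genotype spread over 3.23-fold in WT and 3.32-fold in Lf-/-. The log2 difference was 2.21 (SE 0.49; limma, unadjusted p = 0.00151, adjusted p = 0.213). S1pr1 and Ccr7 had similar profiles over the 7 libraries: S1pr1 was among the 2 nearest genes to Ccr7, and Ccr7 the fifth nearest to S1pr1, at a root mean square difference of 0.35 on the log2 scale.

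Cxcr5 (chromosome 9, 44511787 to 44561877) was the lowest member in WT and had the largest ratio of means. Its FPKM was 0.572 and 0.470 for WT pre-pro-B, 0.711 for WT pro-B, 3.01 and 5.82 for Lf-/- pre-pro-B, and 5.56 and 3.37 for Lf-/- pro-B, so that the lowest Lf-/- library was 4.24 times the highest WT library. The WT values rest on about 18 to 33 fragments each, and the Lf-/- values with a known depth on 108 to 202. The log2 difference was 1.73 (SE 0.33; limma, unadjusted p = 0.000587, adjusted p = 0.141). Cxcr5 reached 1 FPKM in 4 libraries, all of them Lf-/-, so it was tested only through the group where it is high. Its separation and p-value carry that limit. With the filter of at least 1 FPKM in all 7 libraries it was not tested. Bcl9l shares exon bases with it on the opposite strand, 110 in the longest stretch. Bcl9l averaged 0.085 FPKM in WT and 0.300 in Lf-/-, and the sources used here do not say whether counting used strand.

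Cxcr4 (chromosome 1, 128588199 to 128592293) was steady in WT and variable in Lf-/-. Its FPKM was 4.20 and 4.25 for WT pre-pro-B, 4.66 for WT pro-B, 12.1 and 25.4 for Lf-/- pre-pro-B, and 12.4 and 4.83 for Lf-/- pro-B. The lowest Lf-/- library was only 1.04 times the highest WT library, whereas both Lf-/- pre-pro-B libraries stood well above. Across stages the log2 difference was 1.36 (SE 0.44; limma, unadjusted p = 0.0137, adjusted p = 0.501). At the pre-pro-B stage it was 1.83, at the pro-B stage 0.64, and the difference between those, -1.19 (SE 0.86, unadjusted p = 0.210, adjusted p = 0.990, limma), did not pass. The pro-B value turned on single libraries and on the scaling: it was 0.044 without Lf-/- pro-B replicate 1, 1.24 without replicate 2 and 0.088 with median-ratio scaling. The interaction was then -1.79, -0.59 and -1.58.

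S1pr4 (chromosome 10, 81497747 to 81500132), another S1P receptor of blood cells, was the highest member in WT. Its FPKM was 28.0 and 31.0 for WT pre-pro-B, 22.3 for WT pro-B, 31.8 and 43.1 for Lf-/- pre-pro-B, and 61.9 and 42.8 for Lf-/- pro-B. The genotypes lay close in pre-pro-B, without overlap (31.0 in the higher WT library, 31.8 in the lower Lf-/- library), and further apart in pro-B. The log2 difference was 0.66 across stages (SE 0.32; limma, unadjusted p = 0.0703, adjusted p = 0.689), 0.32 at the pre-pro-B stage and 1.17 at the pro-B stage.

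The 250 bases before the start of Cxcr4 and S1pr4 are shown because these receptors of the marrow axis and of S1P have an entry in the RefSeq table (GRCm38.p6). Of the 9 members, 5 have one (also Itga4, Itgb1 and Cd44). Both are on the minus strand and read 5′ to 3′, with capitals marking matches to CACCC (the core bound by KLF factors, among them KLF2, a known regulator of S1pr1) or CAGGTG (E-box) on either strand.
Cxcr4, chr1:128592300-128592549: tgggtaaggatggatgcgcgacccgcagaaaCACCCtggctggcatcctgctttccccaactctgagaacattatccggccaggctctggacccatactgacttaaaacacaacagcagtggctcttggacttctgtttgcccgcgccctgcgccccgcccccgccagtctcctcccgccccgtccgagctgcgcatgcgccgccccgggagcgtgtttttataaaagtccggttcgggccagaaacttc
S1pr4, chr10:81500138-81500387: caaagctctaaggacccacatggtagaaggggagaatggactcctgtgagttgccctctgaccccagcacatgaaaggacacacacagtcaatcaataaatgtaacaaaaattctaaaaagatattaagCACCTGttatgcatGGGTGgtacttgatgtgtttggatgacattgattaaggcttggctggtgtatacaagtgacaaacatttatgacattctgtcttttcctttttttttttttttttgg
CACCC is found 219 bases before the start in Cxcr4 and as its reverse complement 107 before it in S1pr4, where CAGGTG is found, also as its reverse complement, at 121. Of 32851 promoter windows of this length, 52.0% hold CACCC and 17.2% CAGGTG, and the searched GTAAACA (forkhead), ATGCAAAT (octamer) and GGAAGT (ETS core), in 3.17%, 1.60% and 19.7% of windows, were found in neither. A match is a description of the letters only.

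Among the adhesion molecules, Itgal (chromosome 7, 127296260 to 127335138), the alpha chain of LFA-1, had 1.85 and 1.64 FPKM for WT pre-pro-B, 2.09 for WT pro-B, 1.95 and 6.62 for Lf-/- pre-pro-B, and 3.63 and 3.25 for Lf-/- pro-B. All but 1 of the 4 Lf-/- libraries exceeded every WT library, and the 6.62 belongs to the library that stood apart. The log2 difference was 0.68 (SE 0.38; limma, unadjusted p = 0.108, adjusted p = 0.689). Its partner Itgb2 lay between 61.8 and 103 FPKM in WT and between 59.6 and 125 in Lf-/-. Cd44 (chromosome 2, 102811141 to 102901665) was between 6.34 and 9.32 FPKM in WT and between 7.69 and 15.8 in Lf-/- (log2 difference 0.37, SE 0.31, limma, adjusted p = 0.711).

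For VLA-4 the data gave no separation. Itgb1 (chromosome 8, 128685654 to 128733200) was between 4.34 and 5.68 FPKM in WT and between 3.02 and 9.11 in Lf-/- (log2 difference 0.10, SE 0.38; 95% confidence interval -0.75 to 0.95). Its partner Itga4 (chromosome 2, 79255426 to 79333123) was at 1.23 and 1.25 FPKM for WT pre-pro-B, 1.003 for WT pro-B, 1.41 for replicate 1 of Lf-/- pre-pro-B, and 2.46 and 1.57 for Lf-/- pro-B. It is listed at 0 in replicate 2 of Lf-/- pre-pro-B, whose depth is unknown, and the log2 difference was -0.087 (SE 0.41). Without that library it was 0.34 (adjusted p = 0.810, limma). Cerkl overlaps exons of Itga4 on the opposite strand, with 905 bases in the longest shared stretch.

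**Figure D2:**
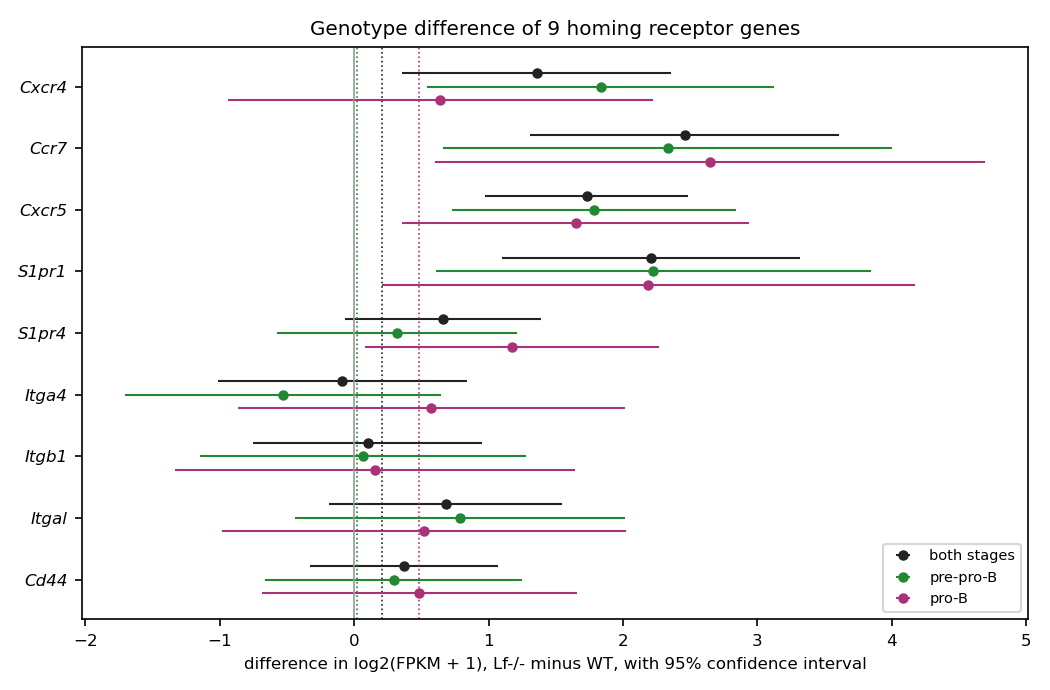
The horizontal axis gives the difference in log2(FPKM + 1), Lf-/- minus WT, for 9 genes across both stages (black), within pre-pro-B (green) and within pro-B (purple), with 95% confidence intervals as bars; dotted lines mark the median of all genes. Intervals of Ccr7, Cxcr5 and S1pr1 lie above 0 in all 3 comparisons, and those of Itga4, Itgb1, Itgal and Cd44 span 0.

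Genotypes were also compared within each stage. In pre-pro-B cells the log2 difference was 2.33 for Ccr7 (95% confidence interval 0.66 to 4.003), 2.22 for S1pr1 (0.61 to 3.84), 1.83 for Cxcr4 (0.54 to 3.12) and 1.78 for Cxcr5 (0.73 to 2.84). Without WT pre-pro-B replicate 1 the value of Ccr7 was 3.30 and without replicate 2 it was 1.37, and that of S1pr1 was 2.87 and 1.57. These 4 members passed 0.05 unadjusted (adjusted p = 0.792 for each, limma), against 2.76% of genes in that direction; 6 members were separated, the 5 receptors and Itgal, against 15.1% of genes. In pro-B cells, where the lone WT library was assumed to vary like the other groups, Ccr7 (2.65), S1pr1 (2.19), Cxcr5 (1.65) and S1pr4 (1.17) passed 0.05 unadjusted, against 4.18% of genes. S1pr1 was at 1.41 there without Lf-/- pro-B replicate 1. All 9 members were above the WT pro-B library in both Lf-/- libraries, but so were 75.3% of genes and the median difference of all genes was 0.48, so this count says little of the members. With median-ratio scaling 6 members (Ccr7, Cxcr5, S1pr1, S1pr4, Itga4 and Itgal) were above the WT library in both (36.6% of genes) and Itgb1 was below it (33% of genes). With a total without neutrophil markers the same 6 were above (51.3%) and Itgb1 below (19.5%). The genotype-by-stage interaction passed 0.05 unadjusted for 0 of 9 members (2.74% of genes) and the pro-B against pre-pro-B difference for 0 of 9 (2.41%); at an adjusted p of 0.05 the counts were 0 of 9 members in each (0% and 0.00927% of genes), as within pre-pro-B and within pro-B (0% of genes each). The stage differences ran from -0.60 for Cxcr4 to 0.50 for Itga4, and with FPKM as deposited no member had its stages apart, beside 1.2% of genes higher and 0.945% lower in every pro-B library. Cd44 was higher in every pro-B library with median-ratio scaling (2.27% of genes) and without neutrophil markers (4.53%). With the animal code as a block, 0 of 9 members passed for stage (adjusted p = 0.999 for each, limma).

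**Figure D3:**
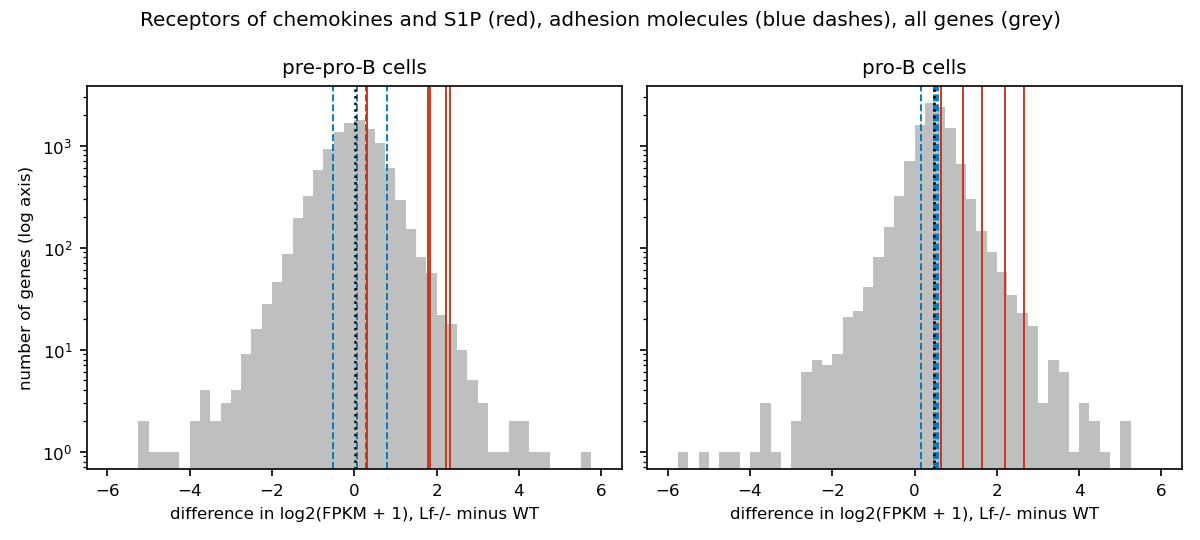
Grey bars count the 10793 genes (log axis) by their difference in log2(FPKM + 1), Lf-/- minus WT, within each stage, with the median dotted. Red lines mark the 5 chemokine and S1P receptors, 4 of which lie at 1.78 or more in pre-pro-B and 4 at 1.17 or more in pro-B; blue dashed lines mark the 4 adhesion molecules.

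The order of levels in WT was S1pr4 (22.3 to 31.0 FPKM), Ccr7 (6.71 to 28.3), Cd44 (6.34 to 9.32), Itgb1 (4.34 to 5.68), Cxcr4 (4.20 to 4.66), S1pr1 (1.89 to 6.10), Itgal (1.64 to 2.09), Itga4 (1.003 to 1.25) and Cxcr5 (0.470 to 0.711). The ranges of neighbours in this order overlapped, except those of Cd44 and Itgb1, of Itgal and Itga4, and of Itga4 and Cxcr5. In Lf-/- cells Ccr7 (48.3 to 123) led, S1pr4 overlapped with it (31.8 to 61.9), and S1pr1 (8.28 to 27.5) and Cxcr4 (4.83 to 25.4) overlapped with each other.

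The chemokine ligands of these receptors were at or near 0. Cxcl12 was at most 0.0196 FPKM in any library, and Ccl19 and Ccl21a were listed at 0 in all 7; Cxcl13 was above 0 in 1. Of the 20 genes of ligands, counter-receptors and S1P metabolism, 10 were tested and 6 were higher in Lf-/-, none passed the adjusted threshold, and 2 were higher and 1 lower at 0.05 unadjusted. Of all genes tested, 66.8% were higher in Lf-/- across stages, 6.48% passed 0.05 unadjusted as higher and 0.695% as lower, and the counts of this and the next lists stand beside those shares. Vcam1, the VLA-4 ligand, was between 9.89 and 14.2 FPKM in WT and between 3.96 and 7.96 in Lf-/- (log2 difference -0.70, unadjusted p = 0.0497, adjusted p = 0.689, limma). Icam2, a ligand of LFA-1, was between 14.4 and 16.9 in WT and between 23.3 and 31.8 in Lf-/- (0.69, adjusted p = 0.656, limma). Icam1 lay between 1.26 and 3.21 FPKM in WT and between 2.72 and 6.17 in Lf-/-.

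Of 34 genes of receptor signaling and integrin activation, 30 were tested and 25 were higher in Lf-/-; 6 passed 0.05 unadjusted, all higher, and none the adjusted threshold. Their median log2 difference was 0.39, beside 0.21 over all genes. Cd69, which binds S1PR1 and takes it from the cell surface, was between 6.36 and 18.8 FPKM in WT and between 36.0 and 90.7 in Lf-/- (2.27, SE 0.41; limma, unadjusted p = 0.000367, adjusted p = 0.107). Klf2, a transcription factor that drives S1pr1 in lymphocytes, was between 49.1 and 90.6 in WT and between 102 and 165 in Lf-/- (1.15, adjusted p = 0.316, limma). Foxo1, a regulator of Ccr7 and Klf2 in lymphocytes, had a difference of 1.64 (adjusted p = 0.247, limma) and Rhoh 1.87 (adjusted p = 0.152, limma). Rgs2 and Rgs1, which dampen G protein signals, were at 1.31 (adjusted p = 0.289, limma) and 1.24 (adjusted p = 0.689, limma). Rgs1 overlapped between the genotypes, and its highest value, 18.3 FPKM, was in Lf-/- pre-pro-B replicate 2.

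Of 24 other chemoattractant and S1P receptors, 15 were tested, 11 were higher (median log2 difference 0.74) and 1 passed 0.05 unadjusted: Gpr183, the oxysterol receptor that positions B cells, at 3.95 to 6.22 FPKM in WT and 8.54 to 36.8 in Lf-/- (1.44, adjusted p = 0.384, limma). In pre-pro-B 6 of 15 were higher and 1 passed 0.05 unadjusted, as lower (2.13% of genes), and in pro-B 14 of 15 were higher and 6 passed (4.18%). The interaction passed 0.05 unadjusted for 5 of the 15, each with a larger Lf-/- minus WT difference in pro-B (2.53% of genes). Of 18 other selectins, selectin ligands and integrins, 9 were tested, 7 were higher and 1 passed 0.05 unadjusted: Pecam1 (0.91, unadjusted p = 0.0152, adjusted p = 0.514, limma). Within pre-pro-B, 51.4% of genes tested were higher in Lf-/-, compared with 19 of 30 signaling genes, 6 of 10 ligand genes and 4 of 9 of the selectin and integrin list. Within pro-B, 87% of genes were, compared with 27, 8 and 9.

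B cell genes moved with these receptors. All 16 tested early B lineage markers were higher in Lf-/- (13 at 0.05 unadjusted, 3 adjusted), as were all 7 tested mature B cell markers (5 and 3). Cd79b and Cd79a, the signaling chains of the B cell receptor, had log2 differences of 2.82 and 2.79, and Ighd, Fcmr and Ms4a1, genes of more mature B cells, 3.36, 3.33 and 2.68. Over the 7 libraries, the genes nearest to Cxcr5 by root mean square difference were Cd180 (0.19), a B cell surface protein, and Slamf6 (0.28), and those nearest to S1pr1 were Spib (0.30), a factor of B cells and plasmacytoid dendritic cells, and Sox4 (0.34). Cxcr4 was nearest to Marcks (0.25) and Gbp9 (0.26). S1pr4 was nearest to Dnajb12 (0.067) and Trpv2 (0.10), Itga4 to 1700037C18Rik (0.051) and Cep76 (0.060), Itgb1 to Pgghg (0.069) and Pole3 (0.094), Itgal to Tmem35b (0.098) and Slf2 (0.099), and Cd44 to Ndel1 (0.078) and Ugcg (0.10). The distances are over 7 libraries and also smaller for genes that vary less.

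Relative to the summed FPKM of the 17 early B lineage markers in the same library, a measure chosen after the values were seen, no receptor was separated as higher in Lf-/-. The sum rests mostly on Cd79a, Cd79b and Cd24a, in unequal parts. Cd24a was 197 to 341 FPKM in WT, where the sum was 431 to 943. It was 297 to 513 in Lf-/-, where the sum was 1937 to 3952. Ccr7 was 0.711% to 3.08% of that sum in WT and 1.96% to 3.55% in Lf-/-. S1pr1 was 0.20% to 0.664% of it in WT and 0.427% to 0.761% in Lf-/-, and Cxcr5 0.0498% to 0.165% and 0.0762% to 0.197%. Cxcr4 was 0.450% to 1.08% of the sum in WT and 0.250% to 0.858% in Lf-/-. Its mean log2 difference was then -0.63, the reverse of its direction in FPKM. That of S1pr4 was -1.35, also reversed, whereas those of Ccr7, S1pr1 and Cxcr5 were 0.50, 0.44 and 0.84, higher as in FPKM. Ccr7, S1pr1, Cxcr5 and Cxcr4 all overlapped between the genotypes, as did Itgal. S1pr4, Itga4, Itgb1 and Cd44 were lower relative to the sum in every Lf-/- library, as were 68% of genes. In the other direction, 0.0649% of genes and no member were higher. The share of B cell RNA and the receptor levels cannot be told apart in these libraries.

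**Figure D4:**
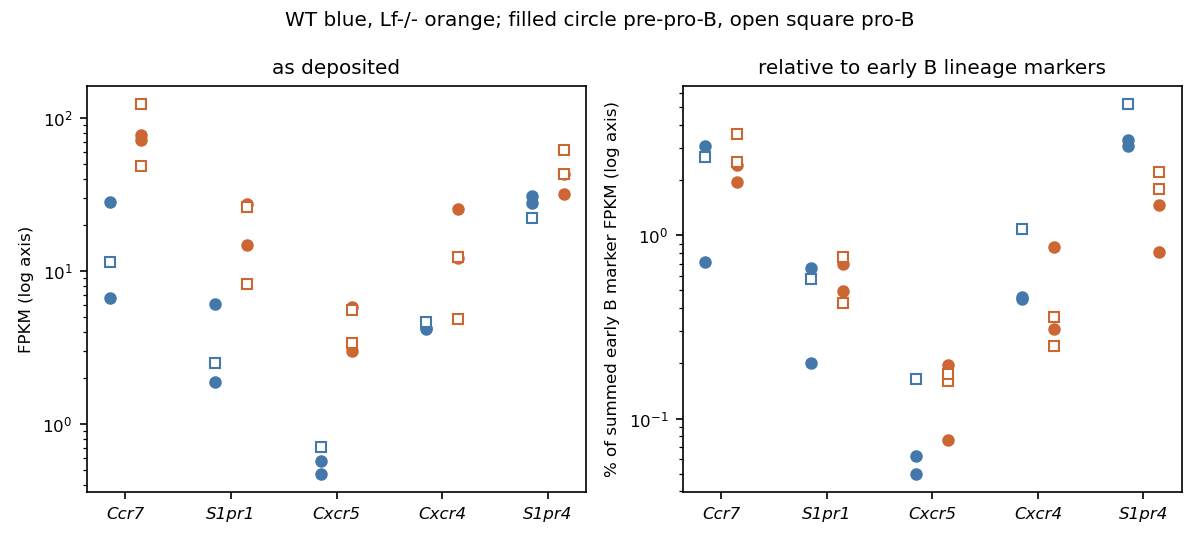
The left panel gives FPKM and the right panel FPKM as a percent of the summed FPKM of the early B lineage markers in the same library (both log axes) for 5 receptor genes, with WT in blue, Lf-/- in orange, filled circles for pre-pro-B and open squares for pro-B. The genotypes are apart for all 5 on the left; on the right they overlap for Ccr7, S1pr1, Cxcr5 and Cxcr4, and S1pr4 is lower in Lf-/-.

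T and NK cell markers took 0.108% to 0.167% of summed FPKM in WT and 0.0588% to 0.138% in Lf-/-, plasmacytoid dendritic cell markers 0.00771% to 0.0110% and 0.00781% to 0.0558%, monocyte and macrophage markers 0.128% to 0.247% and 0.0820% to 0.142%, and erythroid markers 1.90% to 6.99% and 3.54% to 15.2%. Each of these overlapped between the genotypes, and their part in the receptor differences was not tested. The T and NK sum was mostly Nkg7, at 885 to 1283 FPKM in WT and 324 to 919 in Lf-/-. Of the 8 tested T and NK markers, Nkg7 was lower in Lf-/- across stages and the other 7 were higher, beside 66.8% of genes. None of the 7 passed 0.05 unadjusted across stages. Within pro-B 4 of the 8 passed as higher (4.18% of genes), and within pre-pro-B none did. Without Lf-/- pre-pro-B replicate 2, Ccr7 (2.52, adjusted p = 0.0458), Cxcr5 (1.52, adjusted p = 0.0266) and S1pr1 (2.42, adjusted p = 0.0334) passed the adjusted threshold across stages in limma. In that fit 123 of 10529 genes passed, 119 of them higher, beside 20 of 10793 genes with all 7 libraries. Without the same library 6 members were separated, the 5 receptors and Itga4, beside 16.4% of genes. With median-ratio scaling 3 members were separated, Ccr7, Cxcr5 and S1pr1, beside 5.16% of genes, and with a library total that leaves out the neutrophil markers 4, these and S1pr4, beside 6.57%.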

How the data were processed

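RNA of sorted pre-pro-B and pro-B cells was sequenced on a NovaSeq instrument, and the authors deposited 1 table per library with an FPKM value per gene. The submitters' processing notes name TopHat, Cufflinks, HTSeq, DESeq and GRCm38, without versions or roles. FPKM is not a count, so no count test was used, and a gene's value depends on the total of fragments in its library. Of 52550 genes, 52403 were matched to GENCODE M21 (GRCm38) for coordinates. Depth was read from the even steps that values times transcript length form in single-transcript genes.

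Differences were fitted to log2(FPKM + 1) with limma 3.58.1 under R 4.3.3, using a mean-variance trend, for genes of at least 1 FPKM in at least 2 of 7 libraries, two-sided with Benjamini-Hochberg adjustment. Genotype and stage across groups came from an additive fit, and within-stage differences and the interaction from a fit of the 4 group means. Samples were grouped by the labels. All 9 members, Ltf, up to 6 genes of each related list with the largest genotype difference, and the 2 genes nearest to each member were named; the chemokine ligands, Itgb2 and the values relative to early B lineage markers were added after seeing the data, and some genes that the rule names are not reported here. The members and lists were chosen with earlier results of these data known. The fit was tested on simulated data: of 10793 genes with the observed spread, genotype changes of 2 on the log2 scale were recovered at an adjusted p of 0.05 in 50% of cases and of 1 in 0%. The titles give libraries of both stages the same animal codes, but the fits have no block. Only the Lf-/- codes could be compared across stages, since WT pro-B has 1 library (correlation of deviations -0.013). With 2 libraries per group, 1 of them the library that stood apart, that value could not settle whether the codes are pairs. A fit with the animal code as a random effect (limma with statmod 1.5.0) was added after seeing the data. Alternatives were median-ratio scaling, a total without neutrophil markers, a pseudocount of 0.1, other filters, replicate blocks and leaving out each library. Python 3.11.15, numpy 2.4.6, pandas 2.3.3 and matplotlib 3.10.9 did the rest.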

Additional observations from a re-analysis of the deposited data

Results flagged for a closer look

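In the 4 pre-pro-B libraries 2 members had a library far from the others, out of 18 groups of 4 libraries checked. Chance gives about 1 in 20 for libraries of a single population. The groups checked mixed genotypes or stages and shared libraries, so that rate does not hold for them. Itga4 was listed at 0 in replicate 2 of the Lf-/- pre-pro-B group. The gap to the nearest library was 0.874 of the range. Itgal was at 6.62 FPKM in the same library, with a gap of 0.939 of the range.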

How the results depend on the processing

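Each group held 1 or 2 libraries, FPKM carries no counts, and a depth could not be read for 1 library, so small differences could not be seen. With all 7 libraries, FPKM as deposited, a pseudocount of 1, the filter used and no block, no member passed the adjusted threshold. Members did under alternatives named below and beside the results. Across stages, Ccr7, S1pr1, Cxcr5 and Cxcr4 kept their direction in every alternative fit in which they were tested. Relative to the early B lineage markers, Cxcr4 reversed (mean log2 difference -0.63). Ccr7 (0.50), S1pr1 (0.44) and Cxcr5 (0.84) kept their direction there, with values that overlapped between the genotypes. The cause of the changes below was not tested.

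Across stages, 20 genes passed the adjusted threshold. That count was 7 with median-ratio scaling, 10 with a library total without neutrophil markers, 9 with a pseudocount of 0.1, 0 without a filter, 63 with at least 1 FPKM in all 7 libraries, and 0 to 123 with each library left out, with 425 to 3033 genes at 0.05 unadjusted. Ccr7 passed with the stricter filter (2.46, adjusted p = 0.0338). Itgb1 was at -0.21 with median-ratio scaling and at -0.14 without neutrophil markers. With each library left out, Itga4 ran from -0.53 to 0.34 and Itgb1 from -0.22 to 0.44. The count of separated genes, 1065, was 557 with median-ratio scaling, 709 without neutrophil markers, 7 relative to the early B lineage markers, and 1135 to 2339 with each library left out. For the members the count, 5, was 3, 4, 0 and 5 to 7. Leaving out a library can only keep or raise these counts, so that they did not fall there says nothing of their stability.

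In pre-pro-B, 528 genes passed 0.05 unadjusted and none adjusted (limma). The counts were 1001 unadjusted without a filter, 318 unadjusted and 3 adjusted with the stricter filter, 284 unadjusted with pre-pro-B libraries alone, and 142 to 4835 unadjusted and 0 to 3212 adjusted with each library left out. Without Lf-/- pre-pro-B replicate 1, the log2 difference was 2.33 for Cxcr4, 2.17 for Cxcr5, 1.47 for Itgal and -1.16 for Itga4. That leaves 1 Lf-/- pre-pro-B library, the one that stood apart, which is assumed to vary like the other groups. Itgb1 was at -0.092 with median-ratio scaling and -0.088 without neutrophil markers. With each library left out, Itga4 ran from -1.16 to 0.11 and Itgb1 from -0.60 to 0.73.

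In pro-B, 467 genes passed 0.05 unadjusted and none adjusted. The counts were 269 unadjusted with median-ratio scaling, 1979 unadjusted and 256 adjusted without a filter, and 137 to 2318 unadjusted and 0 to 1 adjusted with each library left out. Itgb1 was at -0.38 and Cd44 at -0.11 with median-ratio scaling, and Itgb1 at -0.21 without neutrophil markers. For the interaction, 296 genes passed 0.05 unadjusted. That count was 136 with median-ratio scaling, 195 with a pseudocount of 0.1, 1608 without a filter (122 adjusted), 152 with the stricter filter, and 90 to 2920 (0 to 561 adjusted) with each library left out.

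For stage, 1 gene passed adjusted and 260 unadjusted. The adjusted count was 0 without neutrophil markers, 0 with a pseudocount of 0.1, 0 without a filter, 6 with the stricter filter and 0 to 36 with each library left out; the unadjusted counts were 463 without neutrophil markers, 626 without a filter, 156 with the stricter filter and 139 to 1763 with each library left out. Ccr7 was at 0.023 with median-ratio scaling and 0.14 without neutrophil markers, and Itgb1 at 0.064 without them. With each library left out, Ccr7 ran from -0.44 to 0.26, Cxcr5 from -0.089 to 0.29, Itgal from -0.31 to 0.38, Itgb1 from -0.48 to 0.19, S1pr1 from -0.78 to 0.00087 and S1pr4 from -0.093 to 0.46.

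Correlations of deviations between equal replicate numbers were 0.039 and 0.053 for WT with Lf-/- libraries and -0.013 for Lf-/- libraries across stages. The first values compare different animal codes, and the last rests on 2 libraries per stage, so they could not settle pairing. The numbers were not taken as pairs in the main fits. With the replicate number as a block, S1pr1 passed across stages (2.44, adjusted p = 0.0425, limma), the adjusted stage count was 0, the interaction had 456 genes unadjusted, and Itgb1 in pro-B was at -0.046. With the animal code as a block, the stage count was 8 adjusted and 403 unadjusted, and Itgal was at -0.026. With that code as a random effect (consensus correlation -0.093), 22 genes passed adjusted across stages, and no member did (Cxcr5 1.73, adjusted p = 0.101; Ccr7 2.42, adjusted p = 0.124; S1pr1 2.18, adjusted p = 0.171, limma).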
